A study of Mus musculus with 4 samples.

Results

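The collagen genes were examined in the embryonic mouse stomach at E15.5 (E, embryonic day) by RNA sequencing of total RNA without its ribosomal part. The members were all genes of the deposited table whose symbol reads Col, a number, a and a number, which gave 44 of 51098 genes. The stated comparison set Fgf9_null stomachs (genotype Fgf9LacZ/LacZ, labelled as knockout) against Fgf9_het stomachs (Fgf9LacZ/+, labelled as control and titled WT), with 2 samples in each group, numbered 2 and 3. Both groups carry the LacZ allele of Fgf9, a gene for a secreted fibroblast growth factor, and no stomach with 2 normal copies was among the samples used here. Same-numbered columns of both labels hold the same library, so levels are given for library 2 and library 3, each the mean of its 2 columns, and neither library can be assigned a genotype.

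Collagens are secreted or membrane-anchored proteins whose alpha chains wind into a triple helix. That helix needs a glycine at the start of each triplet of residues, since no larger side chain fits into its core. Fibrillar collagens form the cable-like fibrils of connective tissue, and fibril-associated collagens sit on their surface. Basement membrane collagen makes the sheet beneath epithelium, vessel and muscle cells, microfibrillar collagen VI makes beaded filaments around cells, and transmembrane collagens span the cell surface. In the stomach these chains come largely from mesenchyme and smooth muscle, with some from epithelium and vessels.

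The glycine repeat can be read in the coding sequence, where glycine codons have the form GGN. The length of its unbroken runs sets the fibrillar genes apart from the others, while most of the other classes overlap in it. Coding exons from the GENCODE M21 transcripts on GRCm38 are shown for 6 chains, from the fibrillar, microfibrillar, transmembrane, basement membrane and fibril-associated classes, because the pattern of these codons shows the unbroken and the interrupted form of the repeat. Each is read 5′ to 3′ on the coding strand, with the repeat's GGN codons in capitals. They are exon 8 of Col1a2 (chr6:4515481-4515534, plus strand), exon 6 of Col3a1 (chr1:45325360-45325413, plus), exon 9 of Col6a1 (chr10:76719623-76719676, minus) and exon 26 of Col17a1 (chr19:47663803-47663856, minus), each of 54 bases, then exon 9 of Col4a1 (chr8:11244486-11244569, minus, 84 bases) and exon 18 of Col16a1 (chr4:130059310-130059354, plus, 45 bases).
Col1a2: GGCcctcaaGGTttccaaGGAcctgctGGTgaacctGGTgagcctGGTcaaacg
Col3a1: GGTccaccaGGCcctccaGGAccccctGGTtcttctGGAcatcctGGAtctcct
Col6a1: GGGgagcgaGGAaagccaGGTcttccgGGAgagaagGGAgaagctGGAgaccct
Col17a1: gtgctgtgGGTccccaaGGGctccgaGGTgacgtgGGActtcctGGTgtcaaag
Col4a1: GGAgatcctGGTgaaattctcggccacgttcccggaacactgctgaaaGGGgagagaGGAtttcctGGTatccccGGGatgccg
Col16a1: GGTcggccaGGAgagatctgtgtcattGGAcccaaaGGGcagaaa

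The exons of Col1a2, Col3a1 and Col6a1 begin with a glycine codon and hold 6 glycine codons each, without a break. The Col17a1 exon begins inside a codon and holds 5 complete ones. In the Col4a1 exon 10 codons stand between 1 run of repeats and the next, and in the Col16a1 exon 3 codons do.

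Over whole coding sequences, the longest unbroken run reached 338 repeats in Col1a1, 339 in Col1a2 and 344 in Col3a1. The median over the 11 fibrillar genes was 338, and the shortest were 216 in Col24a1 and 217 in Col27a1. Basement membrane chains had most of their codons in repeats, between 75.4% and 80.1%, but broken into 22 to 27 runs of at least 5 repeats, the longest spanning 39 to 66 repeats. Microfibrillar chains had runs of 37 to 87 repeats that took up only 10.1% to 32.2% of the codons. Among fibril-associated chains, Col9a1, Col9a2, Col9a3 and Col22a1 shared a longest run of 113 repeats, while Col12a1, Col14a1 and Col20a1 shared a longest run of 32. Most exons lying wholly within a run had a length that followed the repeat. Exons that hold a break between runs were not counted. Of 510 fibrillar exons lying within runs, 302 were exactly 54 bases long and 508 were a multiple of 9 bases, the length of 1 repeat. Of 129 such exons in basement membrane genes, 12 were 54 bases long and 107 a multiple of 9 bases. Of 193 in fibril-associated genes, 106 were 54 bases long and 185 a multiple of 9 bases. The short-chain network genes had 0 exons within runs, although 62.2% to 68.0% of their codons were in repeats.

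**Figure D1:**
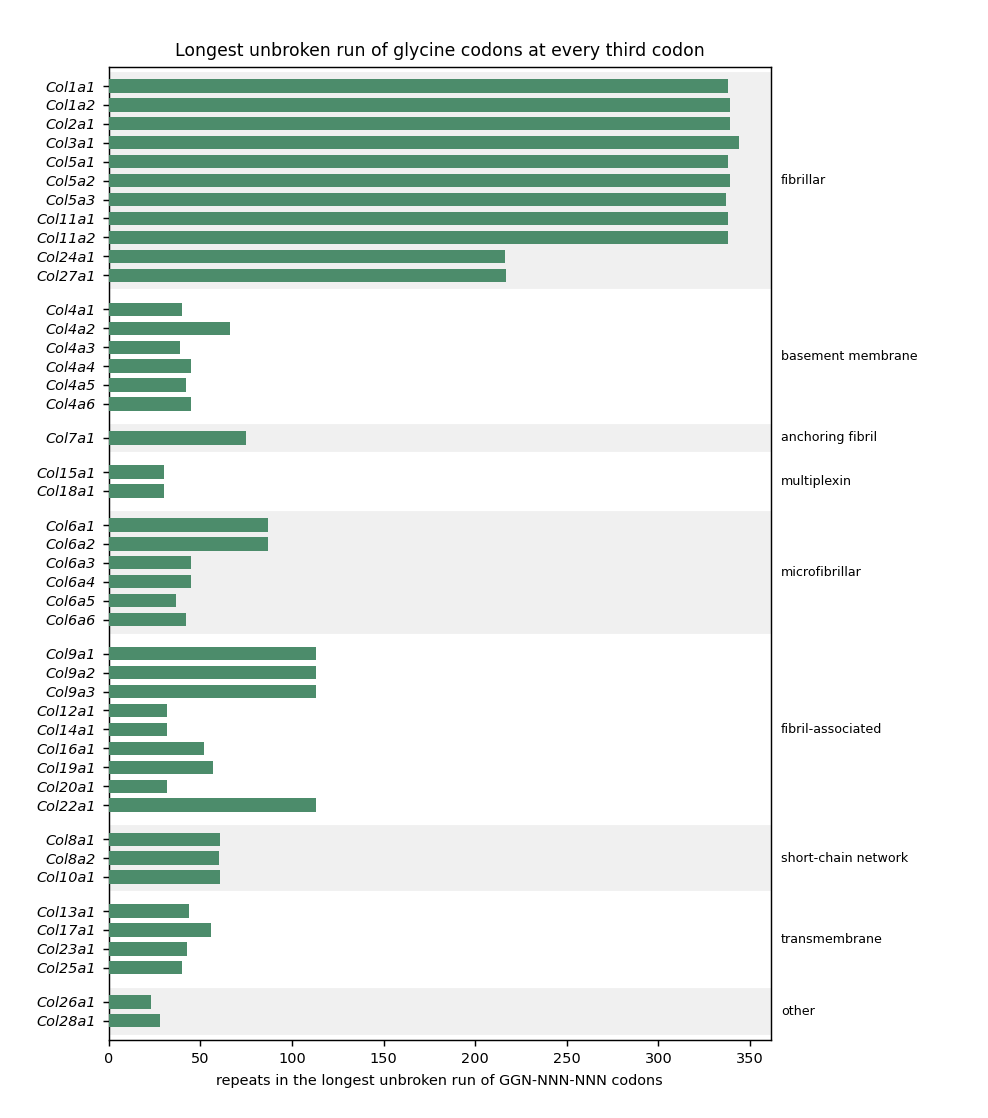
Bars show, for each of 44 collagen genes, the number of repeats in the longest unbroken run of glycine codons at the first position of each codon triplet, grouped by class from top to bottom. The fibrillar genes reach 216 to 344 repeats, above the 113 of the collagen IX genes and Col22a1.

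The 4 columns held 19537211 and 22713416 estimated counts under the Fgf9_null label and 19269851 and 22425865 under the Fgf9_het label, so 1 count was worth 0.0440 to 0.0519 CPM (counts scaled to the same total in every column). A chi-square test of collagen counts gave, per degree of freedom, 0.000200 for the columns numbered 2 and 0.000238 for those numbered 3, against 22.3 to 22.4 for columns of different number. With all genes except 4 RNA genes it gave 0.000792 and 0.00385, against 5.49 to 5.50. The genes left out were Rn7s1, Rn7s6, Gm19220 and Gm26461, and no value was computed with them kept. Same-numbered columns did differ in their share of structured and ribosomal RNAs, which is given below. Over the genes in this test, columns sharing a number therefore differed by less than sampling noise, and they counted as 1 sample. All 6 stomach markers reached 1 CPM in both libraries, led by Cym, the gene of the milk-clotting protease chymosin, with 4882 CPM (library 2) and 4502 CPM (library 3). As these are bulk samples, fewer cells of a type and less RNA per cell cannot be told apart.

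No collagen gene was called different between the genotype labels. Col1a1 had 5320 and 5176 CPM in the Fgf9_null columns and 5396 and 5245 CPM in the Fgf9_het columns. In reads, it had 103929 and 117560 under the Fgf9_null label and 103989 and 117615 under the Fgf9_het label. The gap of 60.0 reads between its number 2 columns was the largest for any collagen gene. In CPM, the Fgf9_null column held 0.983 to 0.987 times the level of the same-numbered Fgf9_het column for every collagen gene. Collagen counts differed by at most 0.250% for number 2 and 0.411% for number 3. CPM divides by the column total, which was larger under the Fgf9_null label, so this ratio does not measure a lower collagen level. Structured and ribosomal RNAs took 17.9% of that total against 16.7% for number 2, and 17.3% against 16.2% for number 3. edgeR's quasi-likelihood test, fitted on all genes, tested all 44 collagen genes and called 0 at an adjusted p under 0.05 or at an unadjusted p under 0.05. Over all genes it called 0 of 19987, a background of 0%, with 4 at an unadjusted p under 0.05; DESeq2 called 3 genes and limma-voom 0, none of them a collagen. The largest absolute log2 fold of a collagen gene was 0.0025, and the median was -0.00034 over collagens and 0.00030 over all genes tested. Since each library stands under both labels, these values compare each library with itself and do not measure an effect of Fgf9 loss on collagen genes.

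Collagen genes made up 2.08% of all counts in library 2 and 2.05% in library 3. Of the 44 members, 43 stood at 1 CPM or more in both libraries, the exception being Col2a1. Their summed level was 20684 ± 208 CPM (SD, n = 2 libraries). To compare genes of different length, CPM was divided by the length of the longest annotated transcript in kb. On this scale fibrillar genes took 65.7% of the collagen total, microfibrillar genes 15.9%, basement membrane genes 10.8% and fibril-associated genes 4.30%. The multiplexin class took 1.94%, and the transmembrane, short-chain network, anchoring fibril and remaining collagens took less than 1% each.

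**Figure D2:**
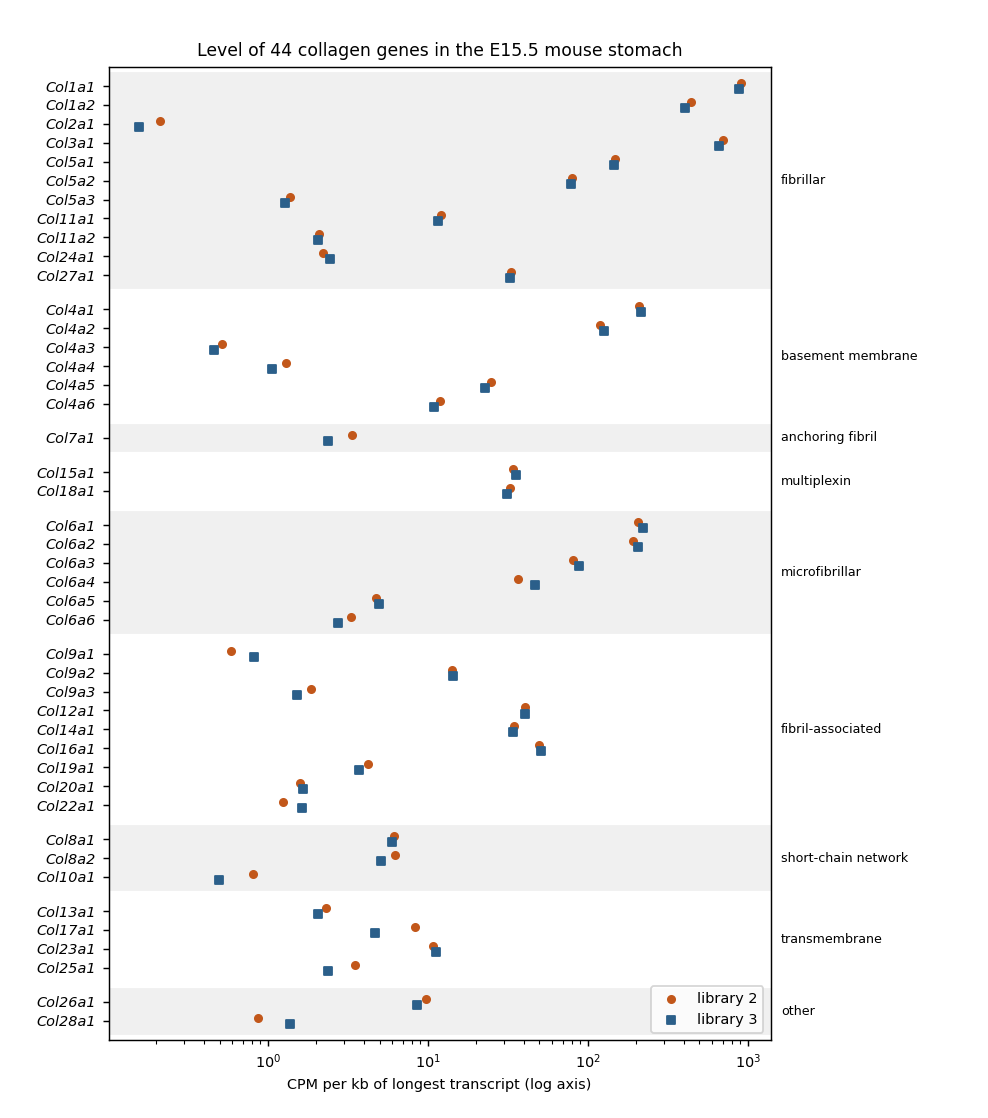
Each row is 1 of 44 collagen genes, with its level in CPM per kb of the longest transcript on a log axis in library 2 (circles) and library 3 (squares), grouped by class. Col1a1 stands highest at 891 CPM per kb and Col2a1 lowest at 0.184 CPM per kb, and most pairs of symbols nearly coincide.

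Fibrillar genes were led by the chains of collagens I, III and V. Col1a1 (ENSMUSG00000001506), the major chain of collagen I, lies on GRCm38 chromosome 11 (chr11:94936224-94953042, plus strand) and had 904 CPM per kb in library 2 and 879 in library 3. Col3a1 (ENSMUSG00000026043), whose product forms fibrils in distensible organs, had 701 and 663 CPM per kb. Col1a2 (ENSMUSG00000029661), the partner of Col1a1 in collagen I, had 442 and 406 CPM per kb. These were the 3 highest collagen genes by this length. By exon union Col1a2, at 183 CPM per kb, stood behind Col6a1 at 201 and Col4a1 at 189. By mean CPM Col1a1 ranked 8, Col3a1 12 and Col1a2 16 among all genes of the table. The order among them was the same in both libraries, and their levels differed from each other by more than the libraries did.

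The genes of collagen V, which is built into collagen I fibrils and limits their width, came next among fibrillar genes. Col5a1 averaged 147 ± 2.16 CPM per kb (SD, n = 2 libraries), Col5a2 had 79.8 in library 2 and 78.3 in library 3, and Col5a3 averaged 1.33 ± 0.0594. Col27a1, a later-discovered fibrillar chain with a shorter helix, stood at 33.2 ± 0.337 CPM per kb, and its relative Col24a1 at 2.34 ± 0.171.

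Chains best known from cartilage were split. Col11a1, of collagen XI, had 92.3 CPM (library 2) and 89.3 CPM (library 3), and Col11a2 had 12.7 and 12.5 CPM. Col9a2, of the fibril-associated collagen IX, had 41.2 and 41.8 CPM, and its partner Col9a1 had 2.27 and 3.15 CPM. Col2a1, the main cartilage fibril chain, had 1.08 CPM in library 2 (21 reads, exact Poisson 95% interval 13.0 to 32.1) and 0.798 CPM in library 3 (18 reads, 10.7 to 28.4), intervals that cover counting error only. Col10a1, a short-chain collagen of hypertrophic cartilage, had 2.53 and 1.55 CPM. Of 10 cartilage markers, 2 reached 1 CPM in both libraries, Sox9, a transcription factor that other stomach cells also express, and Hapln1. The 10 markers summed to 95.3 CPM in library 2, against 99.2 CPM in library 3, of which Sox9 made up 86.8 and 89.8 CPM. Hapln1 stood at 6.41 and 6.86 CPM. Among the remaining markers, the highest by mean CPM was Acan, the cartilage proteoglycan aggrecan, at 0.722 and 1.06 CPM. The lowest was Matn1, at 0 and 0.0443 CPM. Of 6 bone markers, which summed to 17.6 and 18.6 CPM, 4 reached 1 CPM in both libraries. Alpl, an alkaline phosphatase, had 5.82 and 7.27 CPM and the transcription factor gene Runx2 had 6.08 and 5.92 CPM. Sp7, another such gene, had 3.97 and 3.68 CPM and Dmp1 had 1.34 and 1.51 CPM, while Bglap, the osteocalcin gene, had 0.155 and 0 CPM.

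Basement membrane genes were dominated by the widespread pair Col4a1 and Col4a2. Col4a1 (ENSMUSG00000031502) had 211 CPM per kb in library 2 and 215 in library 3, and Col4a2 (ENSMUSG00000031503) had 120 and 127. Col4a5 and Col4a6, whose chains assemble together in basement membranes of smooth muscle and some epithelia, stood at 23.7 ± 1.44 and 11.5 ± 0.650 CPM per kb. Col4a3 and Col4a4, chains of the mature kidney filter that assemble with Col4a5, stood at 0.492 ± 0.0410 and 1.18 ± 0.164. The values of Col4a3 are less certain than the others, because 5.65% of its exon bases lie opposite exons of another gene and the strand setting of the counting is not given in the sources used here.

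These 6 genes form 3 pairs that lie head to head, their starts adjacent and their bodies pointing away from each other. The Col4a1 and Col4a2 transcripts, both on GRCm38 chromosome 8, overlap by 22 bases, with starts 21 bases apart. The starts of Col4a3 and Col4a4 on chromosome 1 lie 72 bases apart, and those of Col4a5 and Col4a6 on the X chromosome 1309 bases apart. On the per-kb scale the level of Col4a1 was 1.76 times that of Col4a2 in library 2 and 1.69 times in library 3. Col4a5 was at 2.07 and 2.06 times Col4a6, and Col4a3 at 0.403 and 0.436 times Col4a4. Within each pair the libraries thus gave nearly the same ratio, while the level differed widely between pairs. The RefSeq promoter window of Col4a2 (GRCm38.p6, chr8:11312555-11312854, plus strand, 250 bases before the start and 50 after it) covers the start of both genes and is shown with motif letters in capitals, beside that of Col1a2 (chr6:4505368-4505667, plus strand), a gene with a start of its own.
Col4a2: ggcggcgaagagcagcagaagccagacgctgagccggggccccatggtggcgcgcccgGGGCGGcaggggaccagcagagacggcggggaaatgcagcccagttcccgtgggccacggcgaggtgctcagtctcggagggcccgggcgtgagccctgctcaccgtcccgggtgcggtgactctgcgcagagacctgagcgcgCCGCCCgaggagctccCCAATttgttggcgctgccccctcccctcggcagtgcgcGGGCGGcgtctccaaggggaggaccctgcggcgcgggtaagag
Col1a2: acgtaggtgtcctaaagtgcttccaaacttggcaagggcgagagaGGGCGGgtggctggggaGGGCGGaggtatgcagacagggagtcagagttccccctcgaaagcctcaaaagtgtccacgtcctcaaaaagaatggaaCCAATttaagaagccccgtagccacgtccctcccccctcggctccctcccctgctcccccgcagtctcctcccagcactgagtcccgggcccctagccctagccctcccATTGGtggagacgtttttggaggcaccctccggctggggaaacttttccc

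The motifs searched on both strands were the CCAAT box (CCAAT), the GC box (GGGCGG) and the TATA box (TATAAA), which do not overlap in these windows. The Col4a2 window held 3 GC boxes and 1 CCAAT box, and the Col1a2 window held 2 of each. Neither held TATAAA. RefSeq windows were matched for 35 of 44 members, in 38 windows; Col1a1, Col2a1, Col5a2, Col4a3, Col9a3, Col12a1, Col14a1, Col22a1 and Col26a1 were not matched. A GC box was found in 60.5% of the collagen windows and in 35.7% of all 32851 windows, a CCAAT box in 34.2% against 37.4%, and a TATA box in 13.2% against 13.6%. A match describes letters and not a bound factor.

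Microfibrillar genes were the next class after the fibrillar one. Col6a1 and Col6a2, neighbours in tandem on chromosome 10, had 208 and 192 CPM per kb in library 2 and 222 and 206 in library 3. Col6a3, whose chain is required with both of them for collagen VI, had 81.5 and 88.8 CPM per kb. The level of Col6a1 was thus 1.08 times that of Col6a2 in both libraries, whereas Col6a3 stood at 0.392 and 0.400 times Col6a1. Col6a4, Col6a5 and Col6a6, alternative chains related to Col6a3 that lie in tandem on chromosome 9, were lower, at 41.7 ± 6.94, 4.86 ± 0.173 and 3.04 ± 0.417 CPM per kb. Col6a4, which is disrupted in the human genome, was the most abundant of these by a wide margin. It had 271 CPM in library 2, against 343 CPM in library 3, a 1.27-fold higher level in library 3 with a counting interval of 1.22 to 1.31, and the largest difference in the class.

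Fibril-associated genes were led by Col16a1, Col12a1 and Col14a1. Col16a1 had 49.6 CPM per kb in library 2 and 51.3 in library 3. Col12a1, a long chain of tendon and fascia fibrils, had 40.4 and 40.7, and Col14a1, its close relative, had 34.5 and 34.0. On this scale Col16a1 held 33.9% and Col12a1 27.2% of the class, and all 3 were nearly level between the libraries. Their order depended on the measure. By exon union Col14a1, at 31.5 CPM per kb, stood above Col12a1 at 30.7. In CPM Col12a1 held 44.8% of the class and Col16a1 25.2%. By the longest transcript Col9a2 came next at 14.2 ± 0.144 CPM per kb. It stood far above its partner chains Col9a1, at 0.706 ± 0.162, and Col9a3, at 1.69 ± 0.236. The level of Col9a2 was 23.8 times that of Col9a1 in library 2 and 17.4 times in library 3. Col19a1, Col20a1 and Col22a1 stood between 1.45 and 3.99 CPM per kb. The values of Col9a3 share a limit with those of Col4a3, as 6.07% of its exon bases lie opposite exons of the gene Tcfl5.

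Collagens of the basement membrane zone other than collagen IV were present as well. Col15a1 and Col18a1, multiplexins with interrupted helices whose products carry antiangiogenic end fragments, had 35.0 ± 1.31 and 32.1 ± 1.15 CPM per kb. In libraries 2 and 3 Col15a1 had 34.1 and 35.9 CPM per kb and Col18a1 had 32.9 and 31.3, so both values of Col15a1 lay above those of Col18a1. Col8a1 and Col8a2, short-chain network collagens of vessel walls, stood at 6.08 ± 0.0896 and 5.66 ± 0.783.

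Transmembrane collagens were low per kb of the longest transcript. Col23a1 led with 10.8 CPM per kb in library 2 and 11.2 in library 3. Col17a1 stood at 6.53 ± 2.59, and Col25a1 and Col13a1 at 2.95 ± 0.826 and 2.19 ± 0.159. By coding length Col23a1 stood at 39.0 CPM per kb, above Col18a1 at 33.8, and Col25a1 at 9.89, above Col17a1 at 8.28, so level and order in this class depended on the length used. Of the remaining collagens, Col26a1 had 9.18 ± 0.784 CPM per kb, and Col28a1, a chain found around peripheral glia, had 1.12 ± 0.359.

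Differences between the libraries were small for most members. As each side is 1 library, they have no replicate check and no test was made. The median absolute difference was 1.07-fold over the 43 collagen genes with at least 30 reads in both libraries, and also 1.07-fold over all 15787 genes with as many reads. A difference above 1.5-fold was seen in 3 of the 43 collagen genes, and in 3.05% of all these genes. In the direction of library 2 they were Col17a1 and Col10a1, against 2.06% of all genes, and in the direction of library 3 Col28a1, against 0.982% of all genes. Just under this limit stood Col25a1 at 1.49-fold, with 459 reads in library 2 and 358 in library 3.

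**Figure D3:**
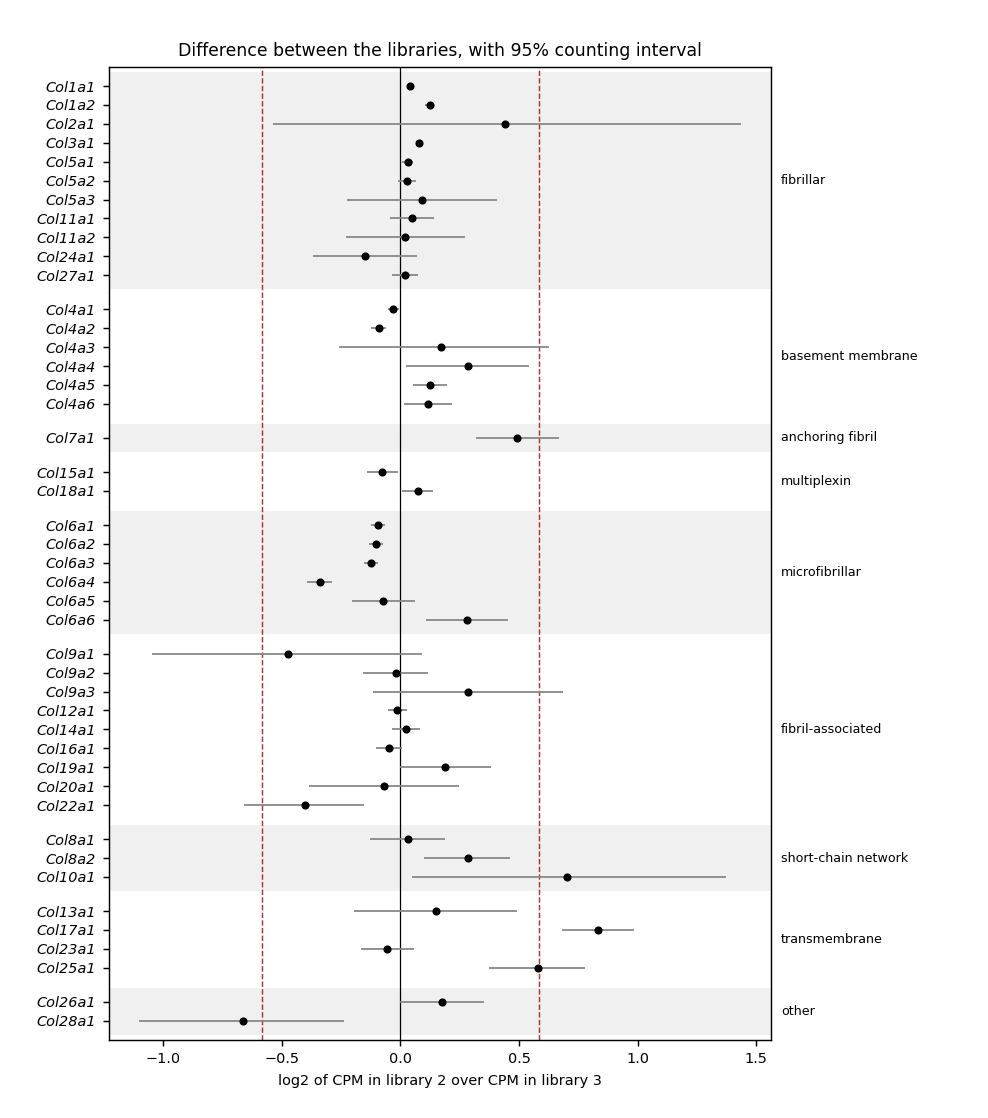
For each of 44 collagen genes the point gives the log2 ratio of CPM in library 2 over library 3, the bar its 95% interval from counting error, and the dashed lines a 1.5-fold difference either way. Points for the abundant fibrillar genes lie close to 0, while Col17a1, Col10a1 and Col28a1 lie beyond the lines.

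By class, 9 of 10 fibrillar genes with enough reads were higher in library 2, by a median of only 1.02-fold. Conversely, 5 of 6 microfibrillar genes were higher in library 3, by a median of 1.07-fold, the exception being Col6a6 with 29.2 CPM (library 2) and 24.1 CPM (library 3). Over all genes with enough reads, 54.7% were higher in library 2, and the share among collagens was 60.5%. Basement membrane genes divided by pair, with Col4a1 and Col4a2 higher in library 3 at 1.02-fold and 1.07-fold, and the other 4 higher in library 2 at 1.08-fold to 1.22-fold.

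The largest difference was that of Col17a1, which encodes a hemidesmosome collagen that ties basal squamous cells to their basement membrane. The gene had 907 reads and 46.7 CPM in library 2, against 593 reads and 26.3 CPM in library 3, a 1.78-fold difference with a counting interval of 1.60 to 1.98. Col7a1, whose product forms the anchoring fibrils beneath the same cells, had 31.0 CPM in library 2, against 22.0 CPM in library 3, a 1.41-fold difference (1.25 to 1.59). Basal squamous epithelium lines the mouse forestomach. Of its 5 markers, the 4 with at least 30 reads in both libraries were also higher in library 2. Krt14, with only 29 and 26 reads, had 1.49 and 1.15 CPM. The sum of all 5 was 464 CPM in library 2, against 292 CPM in library 3. Krt5, a basal keratin gene, had 95.7 and 49.1 CPM, and Krt15, another, had 247 and 144 CPM. Trp63, a basal cell transcription factor, had 21.9 and 12.8 CPM, and Itgb4, the hemidesmosome integrin, had 97.7 and 84.5 CPM. None of these markers was at 0, and their part in the levels of Col17a1 and Col7a1 was not tested.

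**Figure D4:**
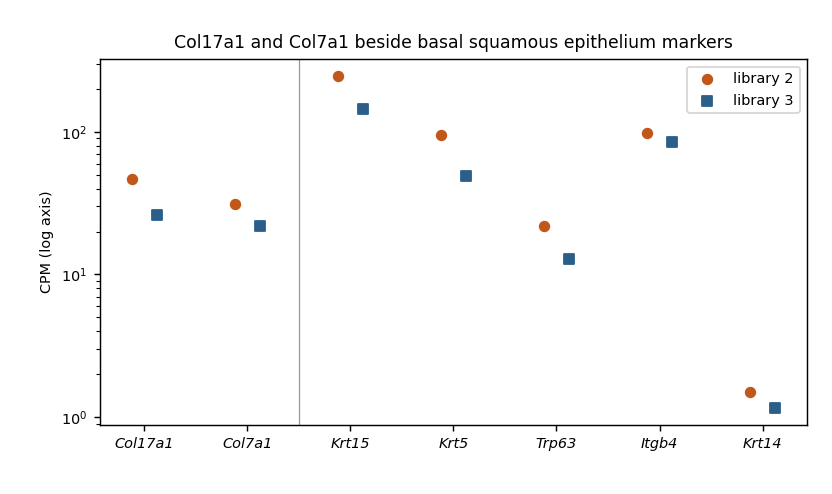
Points give the CPM of Col17a1, Col7a1 and 5 markers of basal squamous epithelium in library 2 (circles) and library 3 (squares), on a log axis. All 7 genes are higher in library 2, but Krt14 rests on only 29 reads in library 2 and 26 in library 3.

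Col25a1, a transmembrane collagen of muscle fibres and neurons, had 23.7 CPM in library 2, against 15.8 CPM in library 3. The 6 skeletal muscle markers summed to 31.1 CPM in library 2, against 17.3 CPM in library 3, with Ttn, the titin gene, at 15.6 and 7.13 CPM and Acta1, skeletal actin, at 5.15 and 2.35 CPM. Ckm, muscle creatine kinase, differed less, with 8.24 and 6.86 CPM. Their myogenic factors were at or near 0, Myod1 with 0.103 and 0 CPM and Myog with 0 and 0.0886 CPM. The part of muscle in the level of Col25a1 was not tested. Col28a1 had 71 reads and 3.66 CPM in library 2, against 131 reads and 5.80 CPM in library 3, a 1.59-fold higher level in library 3 with a counting interval of 1.18 to 2.15. The 5 Schwann cell and glia markers summed to 202 CPM in library 2, against 203 CPM in library 3, with 3 of 5 higher in library 2. Most of this sum was Erbb3, with 160 and 158 CPM, while Sox10, the next, had 23.1 and 25.8 CPM. The part of glia in the level of Col28a1 was not tested. Col10a1 rested on 49 reads in library 2 and 35 in library 3, and its 1.63-fold difference had a counting interval of 1.03 to 2.59. Marker sums for other tissues differed less. In libraries 2 and 3 they were 258 and 299 CPM for 5 blood endothelium genes and 5594 and 5827 CPM for 5 smooth muscle genes. The summed level of 5 mesothelium genes was 106 ± 2.95 CPM (SD, n = 2 libraries), of which Upk1b had 7.06 and 3.21 CPM.

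Genes of the machinery that modifies, exports and cross-links collagen were expressed broadly . edgeR called 0 genes of the 6 lists between the Fgf9_null and Fgf9_het labels, and 0 of all 19987 genes tested. Of the 10 procollagen processing genes, only 7 were tested. The largest absolute log2 fold in the 6 lists was 0.0043. As each library stands under both labels, these values compare each library with itself and do not measure an effect of Fgf9 loss. All 15 genes of the hydroxylase list, which also holds chaperone and sugar transferase genes, reached 1 CPM in both libraries. P4hb, the shared subunit of prolyl 4-hydroxylase, averaged 181 ± 6.54 CPM per kb, and Ppib, a helix-folding isomerase, 54.6 ± 2.59. Of these 15 genes, 12 were higher in library 3, with a median of 1.06-fold over the list. Of all 15787 genes with at least 30 reads in both libraries, 7144 were higher in library 3. All 10 chaperone and export genes reached 1 CPM, led by Sparc, a secreted collagen-binding protein, at 321 ± 4.47 CPM per kb and Serpinh1, the collagen-specific chaperone HSP47, at 304 ± 19.7.

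Procollagen processing genes, most of which encode enzymes that trim the chain ends, reached 1 CPM in both libraries for 7 of 10 members. Bmp1 stood at 32.6 ± 0.353 CPM per kb and Adamts2 at 10.7 in library 2 and 11.2 in library 3. Mep1b had no reads. All 5 lysyl oxidase genes, whose products cross-link fibrils, were at 1 CPM or more, with Lox at 50.4 ± 1.02 and Loxl2 at 43.7 ± 1.31 CPM per kb. The 5 were higher in library 3 by a median of 1.04-fold, with Loxl1 at only 1.01-fold, and 7144 of all 15787 genes with at least 30 reads in both were too. Among 11 collagen receptor genes, 10 reached 1 CPM. Itgb1, the shared integrin beta chain, stood at 109 ± 1.00 CPM per kb and Ddr2, a receptor tyrosine kinase for fibrillar collagen, at 24.5 ± 0.400. Of 8 fibril-binding proteoglycan genes 7 reached 1 CPM, with Bgn (biglycan) at 59.0 ± 1.81 and Dcn (decorin) at 33.5 ± 0.0979 CPM per kb. No gene of these 6 lists with at least 30 reads in both libraries differed by more than 1.5-fold, against 3.05% of all genes with as many reads. The lists held 15, 10, 7, 5, 10 and 7 such genes, in the order given, too few to set 0 apart from that share.

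**Figure D5:**
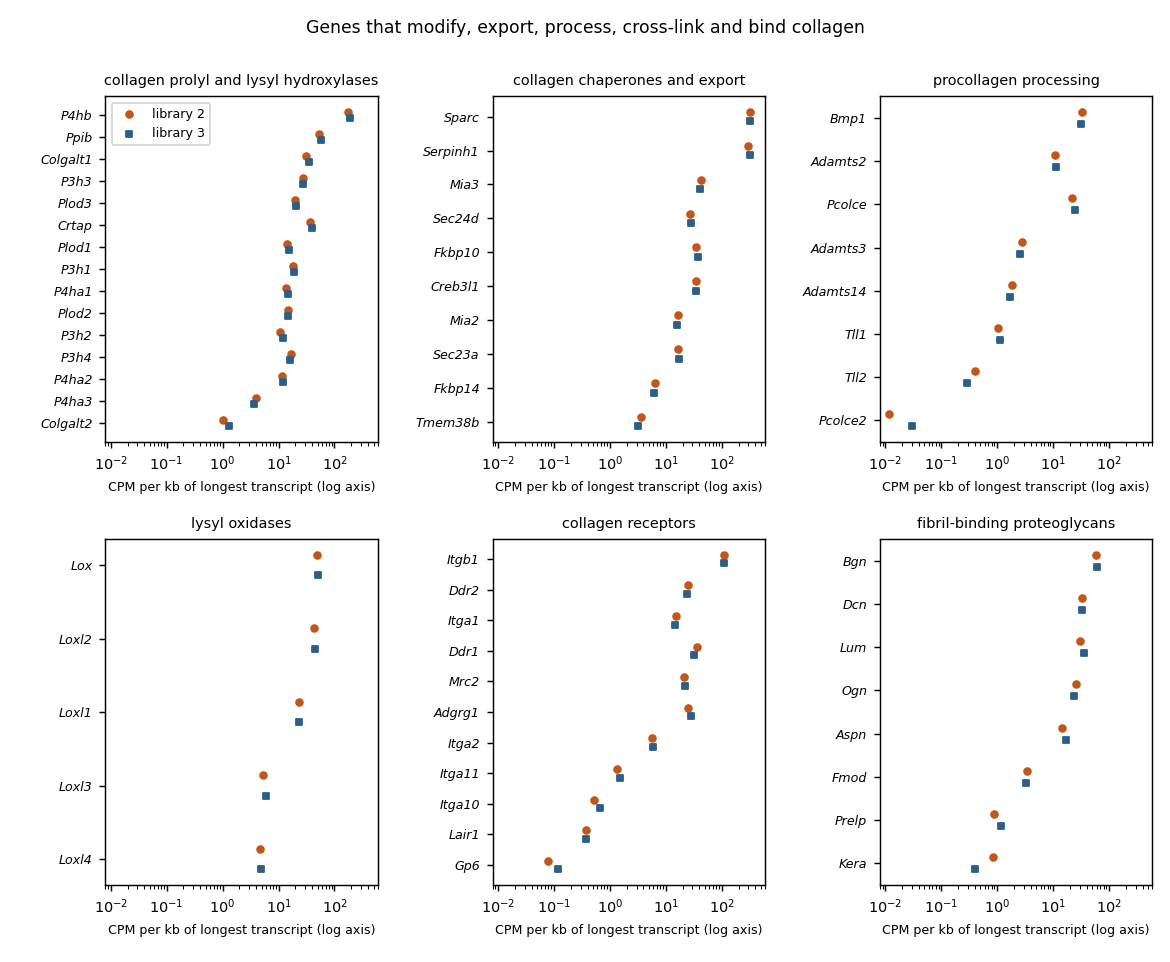
Panels show 6 lists of genes that modify, export, process, cross-link or bind collagen, with the level in CPM per kb of the longest transcript on a log axis in library 2 (circles) and library 3 (squares). Genes run down each panel by mean CPM; Mep1a and Mep1b, at 0 in a library, are not drawn. No gene shown with at least 30 reads in both libraries differs by more than 1.5-fold, against 3.05% of all genes with as many reads.

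The ratio of chains depended in part on the length used. The level of Col1a1 per kb was 2.04 times that of Col1a2 in library 2 and 2.16 times in library 3 by the longest transcript, and 2.14 and 2.26 times by coding length. By the union of all annotated exons, which is 12426 bases for Col1a2, it was 4.29 and 4.54 times. Col5a1 stood at 1.87 and 1.86 times Col5a2, or 2.68 and 2.67 times by exon union. Col6a1 was at 1.08 times Col6a2 by the longest transcript, but at 0.913 and 0.908 times by coding length and at 1.72 and 1.71 times by exon union. Col1a1 and Col3a1 ranked first and second by all 3 lengths, and Col1a2 next after them by the longest transcript and by coding length only.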

How the data were processed

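Stomach RNA, freed of ribosomal RNA with RNase H, was reverse transcribed from random hexamers and read from both ends, per the labels' protocols. Salmon 1.8.0, Trimmomatic 0.33, FastQC 0.10 and edgeR appear, without roles, in the submitters' processing notes, as do builds GRCm38 and mm10. Index, annotation and strand setting were not given in the sources used. From its values the table the authors deposited holds estimated counts for each gene, with no scaling evident, and 28.5% to 29.1% of a column's entries were fractional. Of its columns, 2 have no name and were not used. Whether each header name stands over its own column, and whether a sample came from 1 embryo or several, is not settled by these sources.

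Groups were taken from the genotype field and replicate numbers from the titles. As a check of pairing, deviations from the group mean correlated across genes at 0.9985 (Pearson) for number 2, each pair of columns holding 1 library. With 2 columns in each group the value for number 3 is the same by construction, so it adds no second check. Columns of a number were averaged as CPM. Lengths, positions and exons came from GENCODE M21 (GRCm38), which held all 44 members. Counts were rounded and fitted with edgeR 4.0.16 in R 4.3.3 (TMM, filterByExpr, quasi-likelihood F test, Benjamini-Hochberg over 19987 genes, threshold 0.05). Its p-values cover the spread among these columns alone, which may be technical. DESeq2 1.42.0 and limma-voom (limma 3.58.1) were alternatives. The scripts were tested on simulated data. Glycine runs counted at least 5 consecutive repeats in the longest coding sequence. Counting intervals are exact, at 95%, and cover counting error only; the depth sets their width.

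Members, classes and lists were chosen with earlier results of these data known. Any collagen gene could be named; of each collagen pathway list the 2 genes of highest mean CPM were named, with any called gene and any gene over 1.5-fold apart between libraries with at least 30 reads in both.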

Additional observations from a re-analysis of the deposited data

How the results depend on the processing

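No collagen gene was called between Fgf9_null and Fgf9_het under RLE factors, no filter, DESeq2, limma-voom, the replicate block or with any 1 column left out. The count over all genes stayed at 0 with RLE factors, no filter and limma-voom; DESeq2 called 3 genes, and edgeR with a replicate block, a pairing of every library to itself, called 6. Leaving out 1 column gave a largest absolute log2 fold of a collagen gene of 0.39 to 0.46. It was Col17a1 without the Fgf9_null or Fgf9_het column numbered 2, at -0.457 or 0.456. Without those numbered 3 it was Col28a1, at -0.390 or 0.390. Such a fit sets 1 library against the mean of both, so these folds reflect the difference between libraries. It also takes the lone column's spread from the opposite group.

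Leaving structured and ribosomal RNAs, 16.2% to 17.9% of each column's counts, out of the library size raised the class sums by 1.20 to 1.21 times. The sums became 24924 CPM for all collagens, 16259 for fibrillar, 3732 for microfibrillar, 2953 for basement membrane, 1256 for fibril-associated, 435 for multiplexin, 151 for transmembrane, 69.5 for short-chain network and 36.5 for the other collagens. The multiplexin sum was 358 CPM from the Fgf9_null columns alone and 363 CPM from the Fgf9_het columns alone, against 361 CPM from both. TMM scaling moved no class sum by more than 1 SD, but moved 3 of 44 log2 ratios of library 2 over library 3 beyond their counting error, Col1a1 to 0.02 from 0.04, Col1a2 to 0.10 from 0.12 and Col3a1 to 0.06 from 0.08, all still above 0. The count of collagen genes over 1.5-fold apart was 3 with TMM scaling or either label's columns alone and 4 without structured RNAs, where Col25a1 was added. With a minimum of 100 reads, chosen after seeing the data, it was 1, Col17a1. Levels per kb by coding length were 1.03 to 3.55 times the reported ones and by exon union 0.340 to 1.00 times. The 2 libraries and the reads behind low genes limit every comparison.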
